A study of Mus musculus with 20 samples.

Results

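The mismatch repair enzymes Msh3, Msh6, Mlh3, Pms1, Pms2 and Exo1 were followed by RNA-seq in p19/Nras cells. These are liver cancer cells from a mouse tumor that Nras induced on a p19/Arf-null background. The genes were chosen by symbol. All 6 were present, and passed the filter on low counts, among 13107 genes (Myc experiment) and 11210 genes (HU experiment). In the Myc experiment, sgCtrl cells (Trim33-WT) and a pair of sgTrim33 lines (Trim33-KO1 and Trim33-KO2) carried the pWZL vector (Ctrl) or Myc, with no further treatment. In the HU experiment, sgCtrl and sgTrim33 cells received vehicle or 1 mM hydroxyurea (HU), an inhibitor of nucleotide synthesis that stalls replication forks, for 4 h. Each of the 10 groups has 2 libraries, and all groups share the loss of p19/Arf and the Nras transgene. Each KO name stands for a single edited line, and the labels do not say which line was used with HU, nor whether replicates were separate cultures, so the p-values measure only the spread between these libraries.

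Mismatch repair corrects errors that escape the proofreading of DNA polymerases. A MutS complex binds the error, and a MutL complex is then recruited and can nick the new strand. Msh6 is the subunit of the MutS complex that binds base mismatches and short loops, and Msh3 replaces it in the complex that binds larger loops. Pms2, Mlh3 and Pms1 are alternative MutL subunits: Pms2 carries the main nicking activity, Mlh3 is best known for meiotic crossing over, and Pms1 has no well defined catalytic role. Exo1 is the exonuclease that removes the faulty stretch before resynthesis by the replication polymerases. The partner subunits common to these complexes were not analysed here.

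The libraries of the Myc experiment held 14753177 to 17949430 counts each, and those of the HU experiment 2315327 to 3082202, so the same gene was read less deeply there. Levels are given as CPM, counts scaled to the library total and by TMM factors, and were compared only within an experiment. Trim33 (Entrez 94093), the targeted gene, checks the labels. With the Ctrl vector it stood at 246 and 258 CPM in WT, against 123 and 130 for KO1 and 201 and 207 for KO2. Of the Myc libraries, those labelled KO2 had the lowest Trim33 level, 124 and 125 CPM, followed by those labelled WT (131 and 155). Those labelled KO1 had the highest (185 and 193), above those labelled WT. They still lay below KO2 Ctrl, while the libraries labelled WT Myc lay far below WT Ctrl. The paper checked the knockout by immunoblot, and Trim33 RNA alone does not decide the genotype. Over 10297 genes, the root mean square difference of mean log2 CPM was 0.382 between KO1 Ctrl and the libraries labelled KO2 Myc, against 0.519 between KO1 Ctrl and those labelled KO1 Myc. KO2 Ctrl was likewise nearer to the libraries labelled KO1 Myc, at 0.39, than to those labelled KO2 Myc, at 0.563. The libraries labelled WT Myc were nearer to those labelled KO1 Myc, at 0.437, than to WT Ctrl, at 0.514. WT Ctrl itself was nearer to WT Myc than to any other group. Myc RNA (Entrez 17869) bears on the vector labels, although reads from the vector and from the cells' own gene cannot be told apart. In WT it was 433 and 439 CPM with the Ctrl vector and 456 and 458 with Myc, a difference that was not called (log2FC 0.07, 95% interval -0.05 to 0.18, edgeR adjusted p = 0.31). In KO1 it was 186 and 196 CPM with Ctrl and 621 and 646 with Myc (log2FC 1.73), and in KO2 it was 210 and 219 with Ctrl and 459 and 499 with Myc (log2FC 1.16). The KO lines thus had less Myc RNA than WT with the Ctrl vector (log2FC -1.19 and -1.02), and the libraries labelled WT Myc did not exceed WT Ctrl beyond the error of the test. Directions drawn from Myc libraries rest on their labels, and the first comparisons therefore use the Ctrl vector. In the HU experiment Trim33 was 125 and 140 CPM in WT with vehicle, 43.8 and 50.8 in KO with vehicle, 139 and 142 in WT with HU and 50.9 and 52.2 in KO with HU, in the direction of the labels. Of 10 hepatocyte markers, including Alb, the table of the Myc experiment listed 0 and that of the HU experiment 1, whereas the epithelial keratins Krt8, Krt18 and Krt19 were present (3 of 6 epithelial markers). Their summed level was 4140 to 4310 CPM in WT Ctrl, 3170 to 3220 in KO1 Ctrl, 3440 to 3500 in KO2 Ctrl, 1910 to 1950 in the libraries labelled KO2 Myc and 3010 to 3530 in the other Myc libraries. With the Ctrl vector Krt19 alone was 396 and 415 CPM for WT, 46.8 and 48.6 for KO1 and 112 and 119 for KO2. In the same order, the mean of Krt8 was 1850, 1670 and 1880 CPM, and that of Krt18 was 1970, 1480 and 1470. The summed level of the listed fibroblast markers (4 of 5) was 399 to 426 CPM in KO1 Ctrl, 378 to 379 in the libraries labelled KO2 Myc and 71.5 to 193 in the other groups. The sum joins unlike changes. In WT, KO1 and KO2 with the Ctrl vector, mean Pdgfrb was 16.6, 179 and 102 CPM, and mean Col1a2 was 130, 141 and 15.9. Col1a1 was 29.6, 86.4 and 23.5, and Pdgfra was 5.86, 5.16 and 6.09. Afp, the fetal liver marker, fell within 30.2 to 33.0 CPM in WT Ctrl, 0.798 to 0.92 in KO1 Ctrl and 8.13 to 8.56 in KO2 Ctrl. The part of these markers in the results below was not tested.

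The members differ in their genes and in their levels. In mm9 coordinates, Msh3 (Entrez 17686) lies on the minus strand of chromosome 13 from 92981836 to 93124958, Msh6 (17688) on the plus strand of chromosome 17 from 88374390 to 88390223, and Mlh3 (217716) on the minus strand of chromosome 12 from 86575479 to 86611541. Pms1 (227099) lies on the minus strand of chromosome 1 from 53246031 to 53353862, Exo1 (26909) on the plus strand of the same chromosome from 177810909 to 177841527, and Pms2 (18861) on the plus strand of chromosome 5 from 144670833 to 144698178. All are protein coding. Msh6 shares 25 exonic bases with Fbxo11 on the other strand, and Pms2 shares 410 with Rsph10b2 on its own strand. Strand use in counting is not given in the sources used here, so reads in these overlaps cannot be told apart, and the Pms2 value is uncertain to that extent. Per kilobase of exon, Msh6 had the highest level in WT Ctrl, 23.8 ± 0.424 CPM per kb (SD, n = 2). Exo1 followed with 3.96 ± 0.0778 CPM per kb, Mlh3 with 2.42 ± 0.0636, Msh3 with 1.96 ± 0.262 and Pms2 with 1.56 ± 0.184. Pms1 was lowest, at 0.837 ± 0.0205 CPM per kb. The lengths are those of all annotated exons merged, so that a gene with many transcript forms, such as Pms2, reads lower on this scale.

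Because the study concerns the transcription factor E2f4, the windows from 250 bases before to 50 bases after each start in the RefSeq table (GRCm38.p6) were searched for the E2F letters TTTCCCGC, TTTCGCGC, TTTGCCGC and TTTGGCGC, the E-box CACGTG that Myc can bind and the CCAAT box, on both strands. Of the 6 members, 5 had a window, and Exo1 had none. Msh3 and Msh6, the mismatch binding subunits, alone among these 5 hold E2F letters. The window of Msh6, the most abundant member, is shown with these letters in capitals.
Msh6, chr17:87974800-87975099, plus strand: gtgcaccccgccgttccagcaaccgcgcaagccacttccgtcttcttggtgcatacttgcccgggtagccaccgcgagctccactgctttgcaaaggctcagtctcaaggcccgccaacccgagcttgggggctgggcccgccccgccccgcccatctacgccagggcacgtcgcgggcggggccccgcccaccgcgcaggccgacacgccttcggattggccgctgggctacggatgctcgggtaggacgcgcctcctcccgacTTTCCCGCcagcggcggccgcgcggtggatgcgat
In Msh6 the match lies from 15 to 22, after the start (counted as 0), and a CCAAT box on the other strand covers -34 to -30. In Msh3 overlapping matches on both strands span -202 to -191. Mlh3 has a CCAAT box at -105 to -101 in the first of its 2 windows. Pms1 has 2 such boxes and Pms2 has 3, and no window of a member holds the E-box letters. For comparison, the E2F letters occur in 2.26% of all 32851 windows, CACGTG in 7.15% and CCAAT in 37.4%. A match describes the letters and is not evidence of binding.

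**Figure D1:**
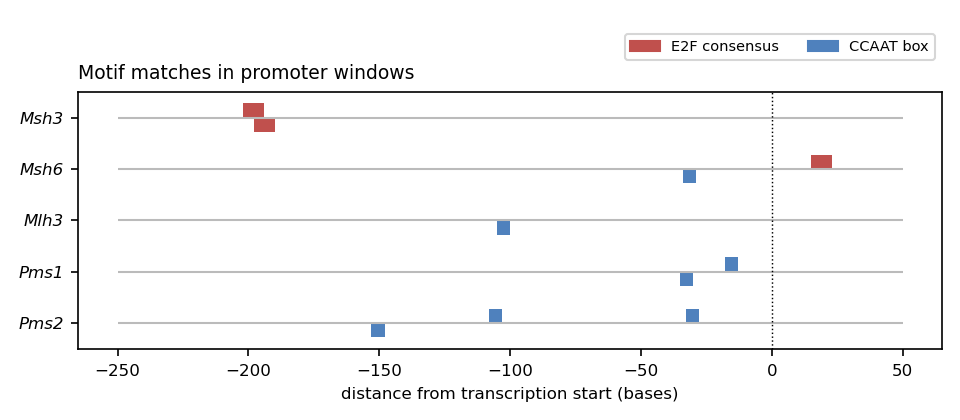
Positions of motif matches, in bases from the transcription start (dotted line at 0), in the promoter window of the 5 members that have one, with the first window shown for Mlh3. Marks above a line are on the gene's strand and those below on the other strand; red E2F letters occur in Msh3 and Msh6, and blue CCAAT boxes in every member shown but Msh3.

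The effect of Trim33 loss without Myc was read from KO1 Ctrl and KO2 Ctrl against WT Ctrl. All 6 members were higher in both lines, and in each line the libraries of a member did not overlap with those of WT, as was so, in either direction, for 83.9% of all genes in KO1 and 82.1% in KO2. By edgeR's quasi-likelihood test, at an adjusted p below 0.01, 5 of 6 members rose in KO1 and 6 of 6 in KO2. The background is high, since 52.2% of all genes were called in KO1 and 49.9% in KO2, in either direction. The median log2FC of the members was 0.87 in KO1 and 0.91 in KO2, against 0.00 and -0.01 over all genes. Both lines share the WT Ctrl libraries, so their agreement is not independent. In bulk RNA, more cells in a state and more RNA per cell cannot be told apart.

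The mismatch binding subunits rose in both lines. Msh6 was 103 and 100.1 CPM in WT, and it stood at 172 and 175 in KO1 against 211 and 221 in KO2. This was a 1.71-fold rise in KO1 (log2FC 0.77, SE 0.0702, edgeR adjusted p = 8.06e-08) and a 2.13-fold rise in KO2 (log2FC 1.09, SE 0.0699, adjusted p = 1.67e-09). Msh3 was 16.0 and 13.3 CPM in WT, with 25.1 and 28.9 in KO1 libraries and 38.5 and 33.2 in KO2 libraries. Its rise was 1.84-fold in KO1 (log2FC 0.88, SE 0.115, adjusted p = 5.02e-06) and 2.45-fold in KO2 (log2FC 1.29, SE 0.111, adjusted p = 4.82e-08). For both genes the libraries were ordered WT, KO1, KO2 with no overlap, and between KO1 and KO2 this holds in either direction for 69.9% of all genes. Directly compared, KO2 exceeded KO1 in Msh3 (log2FC 0.41, SE 0.101, adjusted p = 0.00558) and Msh6 (log2FC 0.32, SE 0.0676, adjusted p = 0.00207), and these were the 2 of 6 members called between the lines, where 18.3% of all genes were called. This difference is fragile. The Msh6 call was lost without any of the 4 libraries compared (adjusted p 0.0103 to 0.0329, with log2FC 0.283 to 0.348), and the Msh3 call without KO1 Ctrl replicate 1 (log2FC 0.315, adjusted p = 0.0942) or KO2 Ctrl replicate 1 (log2FC 0.301, adjusted p = 0.0979).

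The MutL subunits differed among themselves. Mlh3 was 13.7 and 13.2 CPM in WT, with 23.4 and 25.6 in KO1 libraries and 24.9 and 23.2 in KO2 libraries. The rise was of like size in both lines, 1.82-fold in KO1 (log2FC 0.86, SE 0.0982, edgeR adjusted p = 1.08e-06) and 1.79-fold in KO2 (log2FC 0.84, SE 0.0983, adjusted p = 1.82e-06). The difference between the lines was -0.03 on the log2 scale, with a 95% interval from -0.22 to 0.16. Pms1, the lowest member, was 5.02 and 5.2 CPM in WT, with 10.3 and 11.4 in KO1 libraries and 7.58 and 9.04 in KO2 libraries. It rose 2.13-fold in KO1 (log2FC 1.09, SE 0.146, adjusted p = 6.9e-06), the largest change of a member in that line, and 1.63-fold in KO2 (log2FC 0.70, SE 0.153, adjusted p = 0.000841), a call lost without KO2 Ctrl replicate 2 (log2FC 0.568, adjusted p = 0.0171). Pms2, the main nicking subunit, moved least. Its 14.3 and 12.03 CPM in WT stood against 15.3 and 15.5 in KO1, a difference that was not called (log2FC 0.23, SE 0.103, adjusted p = 0.0615), and against 18.7 and 17.6 in KO2, where it rose 1.38-fold (log2FC 0.47, SE 0.0999, adjusted p = 0.000735). The Pms2 call in KO2 was lost without WT Ctrl replicate 2 (log2FC 0.347, adjusted p = 0.0191) or KO2 Ctrl replicate 1 (log2FC 0.418, adjusted p = 0.0111).

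Exo1 was 21.5 and 22.1 CPM in WT, with 43.9 and 42.5 in KO1 libraries and 41.9 and 44.0 in KO2 libraries. The KO libraries of both lines overlapped and lay well above WT, with a 1.98-fold rise in KO1 (log2FC 0.98, SE 0.0937, edgeR adjusted p = 1.42e-07) and a 1.97-fold rise in KO2 (log2FC 0.97, SE 0.0936, adjusted p = 1.84e-07). Between the lines Exo1 differed by -0.01 on the log2 scale, with a 95% interval from -0.19 to 0.17.

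**Figure D2:**
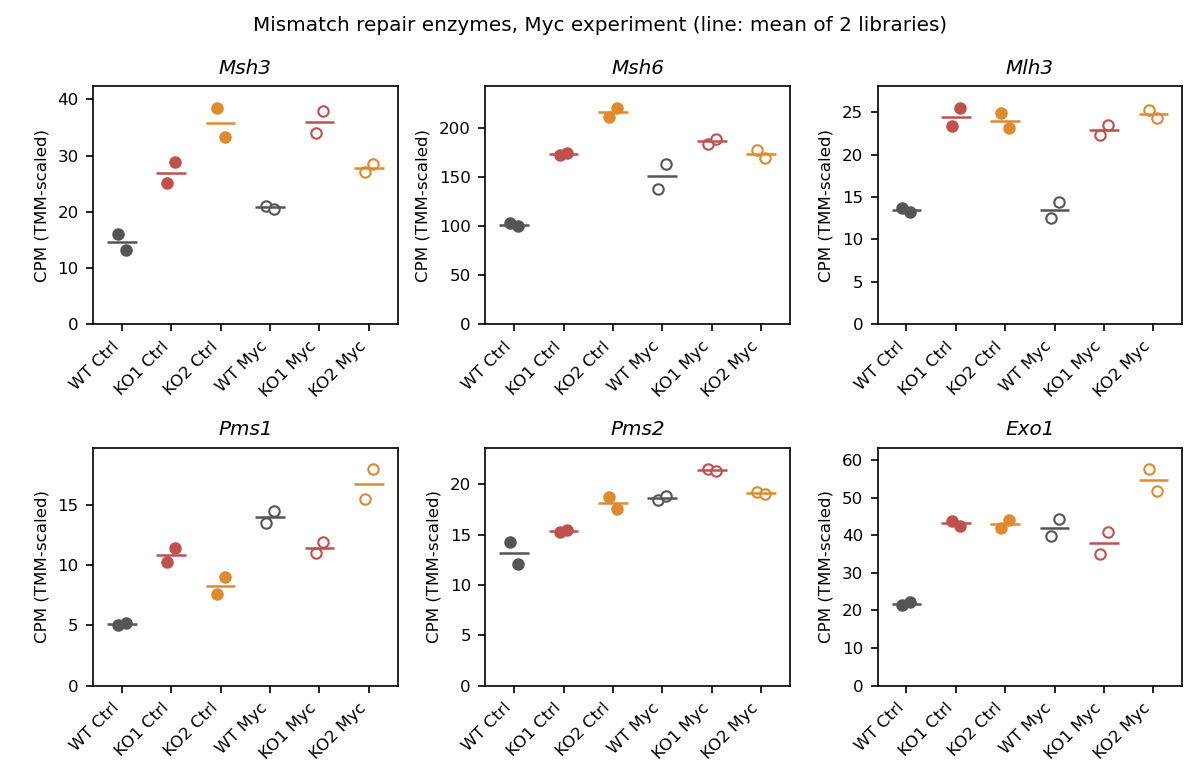
TMM-scaled CPM (vertical axes from 0) of each mismatch repair enzyme in the 12 libraries of the Myc experiment, with a line at the mean of each group's 2 libraries; filled points carry the Ctrl vector and open points Myc. WT Ctrl is below both KO Ctrl groups in all 6 panels, and for Mlh3 both WT groups (12.5 to 14.4 CPM) lie below all 4 KO groups (22.3 to 25.6 CPM).

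Most of the resynthesis partners and of the S phase genes also rose. Accessory repair genes were called about as often as all genes, counted in either direction. All of those called were higher, where 25.5% of all genes were called as higher in KO1 and 23.3% in KO2. The 15 resynthesis partners (the clamp Pcna, its loader, Rpa, polymerase delta, Lig1 and Ssbp1) were listed as in the mismatch repair pathway of the KEGG database. A place in that list does not show that a gene, such as Ssbp1, takes part in nuclear mismatch repair. Of these 15, 10 rose and 1 fell in KO1, with a median log2FC of 0.41. In KO2 10 rose and 1 fell, with a median of 0.80, and 4 were not called in each line. The largest rise was in Rfc5, a clamp loader subunit, in KO1 (log2FC 1.01) and in Rpa2, a subunit of the single-strand binding complex, in KO2 (log2FC 1.18), whereas its partner Rpa3 was the 1 that fell (-0.39 and -0.46). Of 9 accessory repair genes tested, 5 rose in KO1, led by the helicase gene Mcm9 (log2FC 1.01), and 4 rose in KO2, led by the chromatin protein gene Hmgb1 (log2FC 0.73), with medians of 0.53 and 0.19. In both lines fewer accessory genes were called when any single library of the comparison was left out. Of 22 S phase genes, 20 rose and 1 fell in KO1 and 21 rose in KO2, with medians of 0.81 and 1.12. Ung, the uracil DNA glycosylase, rose most in KO1 (log2FC 2.05), and the cyclin Ccne1 in KO2 (log2FC 2.26). The replicative helicase subunit Mcm2 fell in KO1 (-0.30). The summed level of the S phase genes was 1560 to 1690 CPM in WT Ctrl, 2650 to 2720 in KO1 Ctrl and 3210 to 3220 in KO2 Ctrl, the same order as that of Msh3 and Msh6. Their part in the members' rise was not tested. The paper reported that the knockout left the cell cycle distribution of unchallenged cells unchanged. It also reported similar protein levels of several replication proteins, among them Mcm subunits and Cdc6, in both genotypes.

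Myc libraries were then compared with Ctrl libraries of the same label. The Myc effect is named by the vector label, since Myc RNA itself did not pass the test in WT. In cells labelled WT, 5 of 6 members were higher in the Myc libraries, where 44.3% of all genes were called, and the median log2FC was 0.54 against 0.01 over all genes. Pms1 rose most, from 5.02 and 5.2 CPM to 13.5 and 14.5 (2.74-fold, log2FC 1.46, SE 0.139, edgeR adjusted p = 3.05e-07). Exo1 rose from 21.5 and 22.1 CPM to 39.9 and 44.2 (1.93-fold, log2FC 0.95, SE 0.0933, adjusted p = 4.3e-07). Msh6 rose from 103 and 100.1 CPM to 138 and 164 (1.49-fold, log2FC 0.57, SE 0.0703, adjusted p = 4.41e-06). In each of these genes both Myc libraries lay above both Ctrl libraries, where the libraries of 75.2% of all genes do not overlap. The smaller rises of Msh3, to 21.1 and 20.5 CPM (log2FC 0.50, SE 0.118, adjusted p = 0.00173), and of Pms2, to 18.4 and 18.8 CPM (log2FC 0.50, SE 0.0989, adjusted p = 0.00043), were both lost without WT Ctrl replicate 2 (log2FC 0.373 and 0.383, adjusted p = 0.0422 and 0.0131). Mlh3 did not pass the test. Its 12.5 and 14.4 CPM with Myc overlapped the WT Ctrl libraries (log2FC 0.00, 95% interval -0.22 to 0.23, adjusted p = 0.995). Of the resynthesis partners 13 of 15 rose, led by Rpa2 (log2FC 0.98), and of the S phase genes 21 of 22 rose, led by Ung (log2FC 1.58), with Mcm2 falling (-0.37). Of the 9 accessory genes 4 rose, led by Mutyh, a glycosylase gene (log2FC 1.43), and Setd2, a histone methyltransferase gene, fell (-0.42).

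In the KO lines fewer members rose. Between the libraries labelled KO1 Myc and KO1 Ctrl 2 of 6 members were called, both higher, where 36.1% of all genes were called. These were Pms2, at 21.5 and 21.4 CPM with Myc (log2FC 0.48, SE 0.0935, edgeR adjusted p = 0.00052), and Msh3, at 34.1 and 37.9 CPM (log2FC 0.42, SE 0.1, adjusted p = 0.00264). The Msh3 call was lost without KO1 Ctrl replicate 1 (log2FC 0.318, adjusted p = 0.0536) or KO1 Myc replicate 2 (log2FC 0.337, adjusted p = 0.0371). The others were not called: Msh6 at 184 and 188 CPM (log2FC 0.10), Mlh3 at 22.3 and 23.5 (-0.10), Pms1 at 11.0 and 11.9 (0.07) and Exo1 at 35.1 and 41.0 (-0.19). Between the libraries labelled KO2 Myc and KO2 Ctrl 4 of 6 members were called, 2 higher and 2 lower, where 38.8% of all genes were called. Pms1 rose to 15.5 and 18.0 CPM (2.02-fold, log2FC 1.01, SE 0.121, adjusted p = 3.89e-06), and this call held without any single library. Exo1 rose to 57.7 and 51.9 CPM (log2FC 0.35, SE 0.083, adjusted p = 0.00222). Msh3 fell to 27.1 and 28.5 CPM (log2FC -0.37, SE 0.0987, adjusted p = 0.00524) and Msh6 fell to 178 and 169 CPM (log2FC -0.32, SE 0.0673, adjusted p = 0.000992). Mlh3, at 25.3 and 24.4 CPM (log2FC 0.05), and Pms2, at 19.2 and 19.1 CPM (log2FC 0.08), were not called. The calls of the 3 smaller changes depended on single libraries. The Exo1 call was lost without KO2 Ctrl replicate 1, KO2 Ctrl replicate 2 or KO2 Myc replicate 1 (log2FC 0.314, 0.387 and 0.274), the Msh3 call without KO2 Ctrl replicate 1, KO2 Myc replicate 1 or KO2 Myc replicate 2 (-0.258, -0.335 and -0.405), and the Msh6 call without KO2 Ctrl replicate 2 or KO2 Myc replicate 2 (-0.283 and -0.281).

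Since each KO Ctrl group was nearer to the Myc libraries of the other line number, the Myc libraries of each line were also set against the Ctrl libraries of the other line, an alternative chosen after the data were seen. Msh3 then no longer passed in either line, nor Msh6 in KO2, and Msh6 in KO1 again did not pass. The libraries labelled KO2 Myc differed from KO1 Ctrl by a log2FC of 0.043 in Msh3 and 0.000534 in Msh6, and those labelled KO1 Myc from KO2 Ctrl by 0.00358 in Msh3 (edgeR adjusted p = 0.983) and -0.212 in Msh6 (adjusted p = 0.0181). Pms1 and Exo1 still rose in the libraries labelled KO2 Myc (log2FC 0.627 and 0.342, adjusted p = 0.000418 and 0.00362), Pms1 also passed in those labelled KO1 Myc (log2FC 0.462, adjusted p = 0.00858), and the Pms2 call of KO1 was lost (log2FC 0.24, adjusted p = 0.0436).

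The difference between the Myc effects in KO and WT cells was tested directly. Myc RNA itself differed in this test, by 1.66 on the log2 scale for KO1 and by 1.09 for KO2 (edgeR adjusted p = 1.45e-10 and 1.87e-08), so that the groups compared did not gain the same amount of it. Its part in the differences below was not tested. Against the effect in WT, that in KO1 was smaller in 3 of 6 members, where 37.3% of all genes were called. For Pms1 the difference was -1.38 on the log2 scale (SE 0.187, edgeR adjusted p = 1.57e-05), for Exo1 -1.13 (SE 0.127, adjusted p = 2.15e-06) and for Msh6 -0.47 (SE 0.0976, adjusted p = 0.00081). In KO2 the effect was also smaller in 3 of 6 members, where 32.8% of all genes were called. Here Msh6 differed by -0.89 (SE 0.0973, adjusted p = 1.99e-06), Msh3 by -0.87 (SE 0.154, adjusted p = 0.000232) and Exo1 by -0.60 (SE 0.125, adjusted p = 0.00103). Msh6 and Exo1 were thus called with both lines, and they were still called in both with the Ctrl libraries of the other line as the baseline (Msh6 -0.786 and -0.573, Exo1 -1.12 and -0.605), while the Msh3 call in KO2 was lost (-0.461, adjusted p = 0.0259). With that baseline Pms1 was called in both lines as well, at -0.994 for KO1 (adjusted p = 0.000569) and at -0.829 for KO2 (adjusted p = 0.00187), where it had been -0.44 and not called. Pms2, at -0.43 for KO2 and not called (adjusted p = 0.017), passed without WT Ctrl replicate 1 (-0.553, adjusted p = 0.00716), with library totals in place of TMM factors (-0.52, adjusted p = 0.00506) and with a minimum of 5 CPM (-0.466, adjusted p = 0.00914). Both tests share the WT libraries. Among the S phase genes, 21 of 22 had a smaller Myc effect in KO1 and 21 of 22 in KO2 (medians -0.85 and -1.14), the summed level being 2380 to 2610 CPM in the libraries labelled WT Myc, 2420 to 2490 in KO1 Myc and 2630 to 2750 in KO2 Myc. Of the 15 resynthesis partners, 9 had a smaller effect in KO1 and 10 in KO2.

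**Figure D3:**
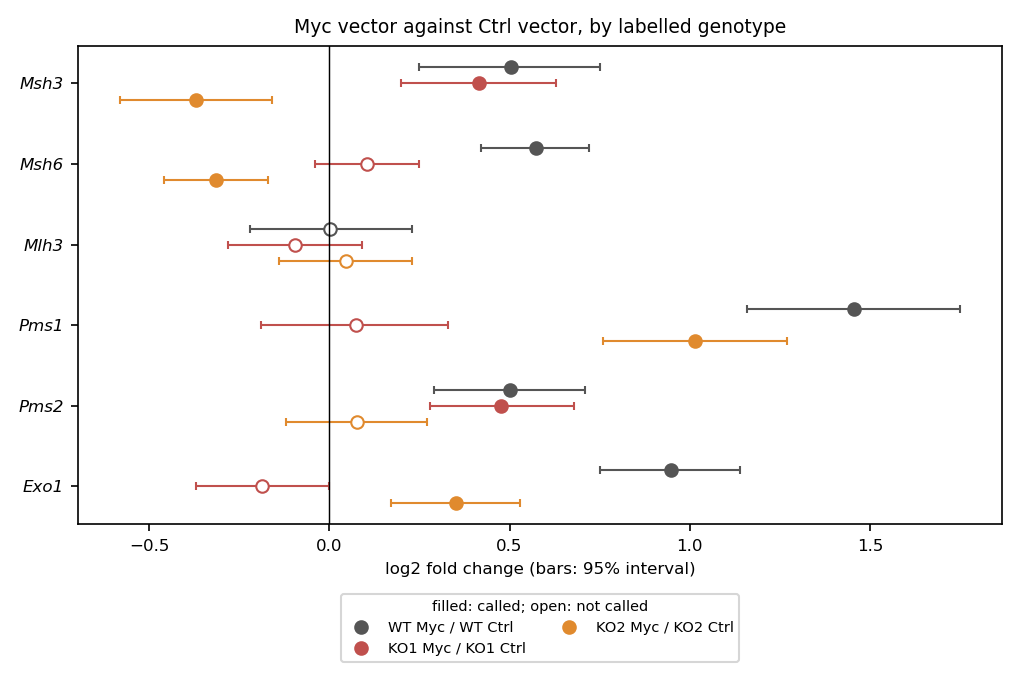
Log2 fold change of Myc against Ctrl libraries (horizontal axis) for each mismatch repair enzyme, by labelled genotype, with bars for approximate 95% intervals; filled points were called at an adjusted p below 0.01. Pms1 spans the widest range, 1.46 in WT, 0.07 in KO1 and 1.01 in KO2, while Mlh3 stays between -0.10 and 0.05.

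With Myc, the KO libraries were also set against the libraries labelled WT Myc. In KO1 3 of 6 members were higher, where 25.1% of all genes were called, and in KO2 3 of 6, where 35.2% were called. Mlh3 was called in both, 1.70-fold in KO1 (log2FC 0.77, SE 0.096, edgeR adjusted p = 1.31e-05) and 1.84-fold in KO2 (log2FC 0.88, SE 0.0946, adjusted p = 1.32e-06), much as with the Ctrl vector. These calls held without any single library. Msh3 was called in both as well (log2FC 0.79 in KO1 and 0.42 in KO2, adjusted p = 1.82e-05 and 0.00357), although its call in KO2 was lost without KO2 Myc replicate 1 or 2 (log2FC 0.454 and 0.385) and in a fit of these groups alone (log2FC 0.42, adjusted p = 0.0105). Msh6 was called in KO1 (log2FC 0.30, adjusted p = 0.00227), and not without WT Myc replicate 1 or KO1 Myc replicate 2 (log2FC 0.187 and 0.287) or with these groups alone in the fit (log2FC 0.319, adjusted p = 0.0344). In KO2 its log2FC was 0.20 (adjusted p = 0.0226), and it was called without WT Myc replicate 2 (log2FC 0.33, adjusted p = 6.54e-05). Exo1 was called in KO2 (log2FC 0.38, adjusted p = 0.00135), a call lost without KO2 Myc replicate 1 (log2FC 0.302) and in a fit of these groups alone (log2FC 0.379, adjusted p = 0.0135), and not in KO1 (log2FC -0.15, adjusted p = 0.186). Whether the lines differed with Myc was not tested for these genes. Pms1 and Pms2 were not called in either line (log2FC -0.29 and 0.26 for Pms1, 0.20 and 0.04 for Pms2).

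Ranked by mean CPM over the 6 groups, WT Ctrl was lowest for 5 of the members, and for Mlh3 it overlapped the libraries labelled WT Myc (means 13.5 and 13.4). Above it, Msh3 ran from WT Myc (20.8) through KO1 Ctrl (27.0) and KO2 Myc (27.8) to KO2 Ctrl (35.9) and KO1 Myc (36.0), with overlap within each of the latter pairs. Msh6 ran from WT Myc (151) through KO1 Ctrl and KO2 Myc (both 173, overlapping) and KO1 Myc (186) to KO2 Ctrl (216). Pms1 had another order, from KO2 Ctrl (8.31) through KO1 Ctrl (10.9) and KO1 Myc (11.5), which overlapped, and WT Myc (14.0) to KO2 Myc (16.8). Pms2 ran from KO1 Ctrl (15.4) to KO1 Myc (21.4), and Exo1 had 4 overlapping neighbors from KO1 Myc (38.0) to KO1 Ctrl (43.2), with KO2 Myc (54.8) above them.

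Likeness of patterns was described by the root mean square difference of centered log2 CPM over the 12 libraries, with no test. Among the members Msh3 and Msh6 were most alike (0.188) and Mlh3 and Pms1 least (0.545). Over 10297 genes, the closest to Msh6 were Dek (0.06), Me2 (0.0798) and Cdca2 (0.0831), against a median of 0.414 over all genes. Msh3 lay closest to Senp7 (0.151), Trim65 (0.164) and Foxm1 (0.165). Mlh3 lay closest to Xxylt1 (0.0616), Pitpnm2 (0.0692) and Notch2 (0.073), and Pms1 to Cdca7l (0.143), Nrm (0.152) and Zranb3 (0.155). The closest to Pms2 were Eml3 (0.0765), Acaa2 (0.0782) and Cep63 (0.0811), and to Exo1 Fscn1 (0.0998), Dtl (0.101) and Tbc1d4 (0.106). The libraries share depth and processing, and the 6 groups leave few independent points.

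The HU experiment asked about the same genes under fork stalling. Here the members' counts were small, from 14 to 46 for Pms1, 46 to 86 for Mlh3, 56 to 89 for Msh3, 59 to 92 for Pms2, 133 to 217 for Exo1 and 596 to 908 for Msh6. Even numbers are in excess among low counts of this experiment, and whether 1 count stands for a read pair or for a single mate is not known. By edgeR's test, at an adjusted p below 0.05, HU changed 0 of 6 members in WT cells, where 9.83% of all genes were called, and 0 of 6 in KO cells, where 6.45% were called. DESeq2 also called 0 in each, and 2 members in WT (Mlh3 and Pms1) and 0 in KO had an unadjusted p below 0.05. In WT, Mlh3 was 24.4 and 32.3 CPM with vehicle and 18.5 and 15.9 with HU, without overlap, as for 51% of all genes (log2FC -0.72, SE 0.278, edgeR adjusted p = 0.0905). In KO it was 28.1 and 21.4 with vehicle and 19.1 and 21.3 with HU (log2FC -0.28, SE 0.279, adjusted p = 0.687). Mlh3 was thus lower on average with HU in both genotypes, and neither difference was called after adjustment. Pms1 was 19.7 and 8.65 CPM in WT with vehicle and 10.2 and 4.85 with HU, and the wide spread between replicates left log2FC -0.89 with a 95% interval from -1.75 to -0.02 (adjusted p = 0.22). In KO it was 11.4 and 11.0 with vehicle and 9.9 and 7.11 with HU (log2FC -0.39). The other members had log2FC between -0.29 (Msh3) and 0.03 (Exo1) in WT, and between -0.25 (Msh3) and 0.29 (Exo1) in KO. The HU effects of the genotypes were not distinguishable in any member (0 of 6 called by edgeR and by DESeq2, 0 with an unadjusted p below 0.05), where 0.0714% of all genes were called. The differences had 95% intervals as wide as -0.74 to 1.74 for Pms1 and as narrow as -0.07 to 0.58 for Msh6. Of the 22 S phase genes, 1 rose with HU in WT (Cdc45, a replication fork factor, log2FC 0.59) and 0 were called in KO. Of the resynthesis partners 0 of 15 were called in WT and 1 rose in KO (Pcna, log2FC 0.36). Of the 8 accessory genes tested, Hmgb1 fell in WT (log2FC -0.47) and the glycosylase gene Tdg rose in KO (log2FC 0.50).

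**Figure D4:**
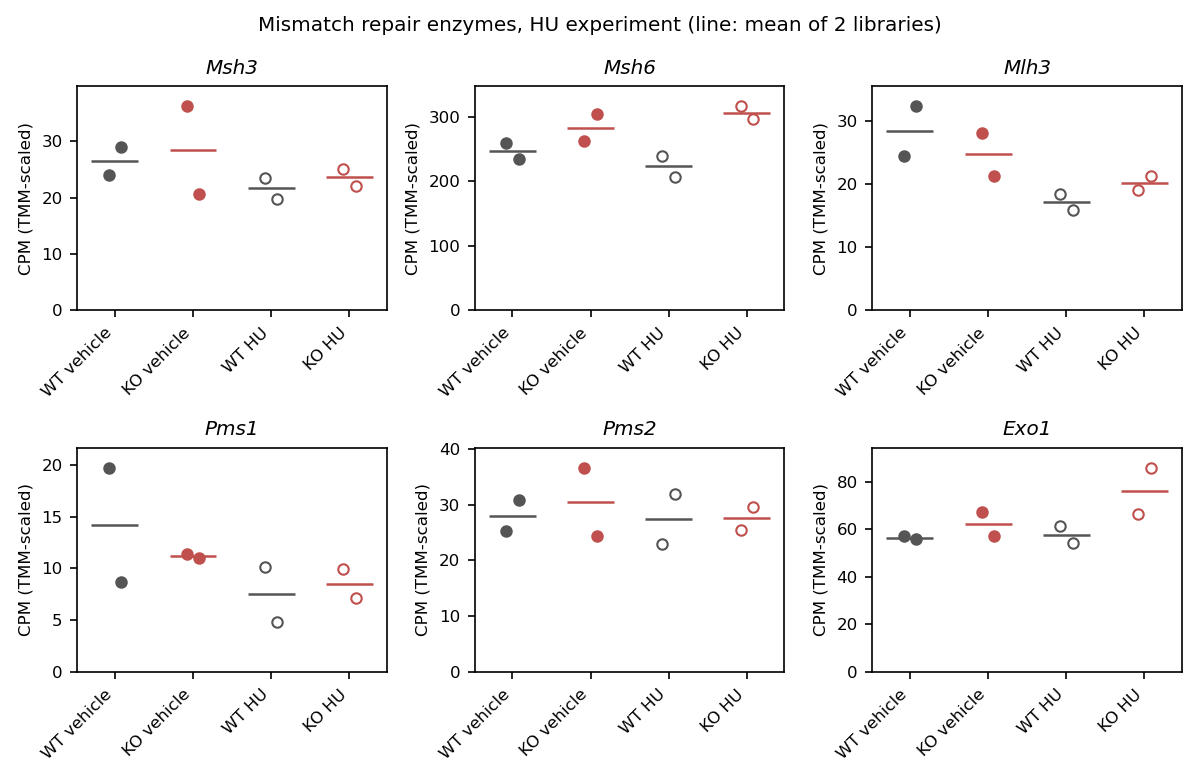
TMM-scaled CPM (vertical axes from 0) of each mismatch repair enzyme in the 8 libraries of the HU experiment, with a line at the mean of each group's 2 libraries; filled points received vehicle and open points HU. In the Msh6 panel the KO libraries (263 to 316 CPM) lie above the WT libraries (206 to 259 CPM), whereas for Msh3 and Pms2 the KO and WT libraries overlap with either treatment.

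Between genotypes in the same experiment, 0 of 6 members were called with vehicle by edgeR or by DESeq2, 0 had an unadjusted p below 0.05, and 12% of all genes were called. Msh6 was 259 and 235 CPM in WT and 263 and 303 in KO (log2FC 0.20, 95% interval -0.03 to 0.43, edgeR adjusted p = 0.276). With HU, Msh6 was the 1 of 6 members called, where 11% of all genes were called. It was 239 and 206 CPM in WT and 316 and 296 in KO, a 1.37-fold difference (log2FC 0.46, SE 0.113, adjusted p = 0.00373). The call was lost without KO HU replicate 1 (log2FC 0.41, adjusted p = 0.0773) or WT HU replicate 2 (log2FC 0.355, adjusted p = 0.184). Exo1 followed in size, with 61.4 and 54.0 CPM in WT and 66.5 and 85.7 in KO (log2FC 0.39, SE 0.174, adjusted p = 0.142), without overlap, as for 55.4% of all genes, and without passing the test. For Exo1 with vehicle the 95% interval from -0.23 to 0.49 did not reach the log2FC of 0.98 and 0.97 seen in the Ctrl libraries of the Myc experiment. For Msh3 it ran from -0.45 to 0.62 and for Mlh3 from -0.75 to 0.33, again short of the values in both lines there, and the upper bound of 0.43 for Msh6 lay below its 0.77 and 1.09. The interval of Pms1, from -1.17 to 0.52, lay below its estimates of 1.09 and 0.70. That of Pms2, from -0.41 to 0.61, contained both of its estimates there. Estimates from the Myc experiment have errors of their own, so an interval short of them does not by itself show a difference. The experiments differ in depth, only the labels of the Myc experiment name a vector, the labels do not tell which KO line received HU, and the difference between them was not tested. The summed level of the S phase genes ranged from 3800 to 4260 CPM over the 8 libraries.

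**Figure D5:**
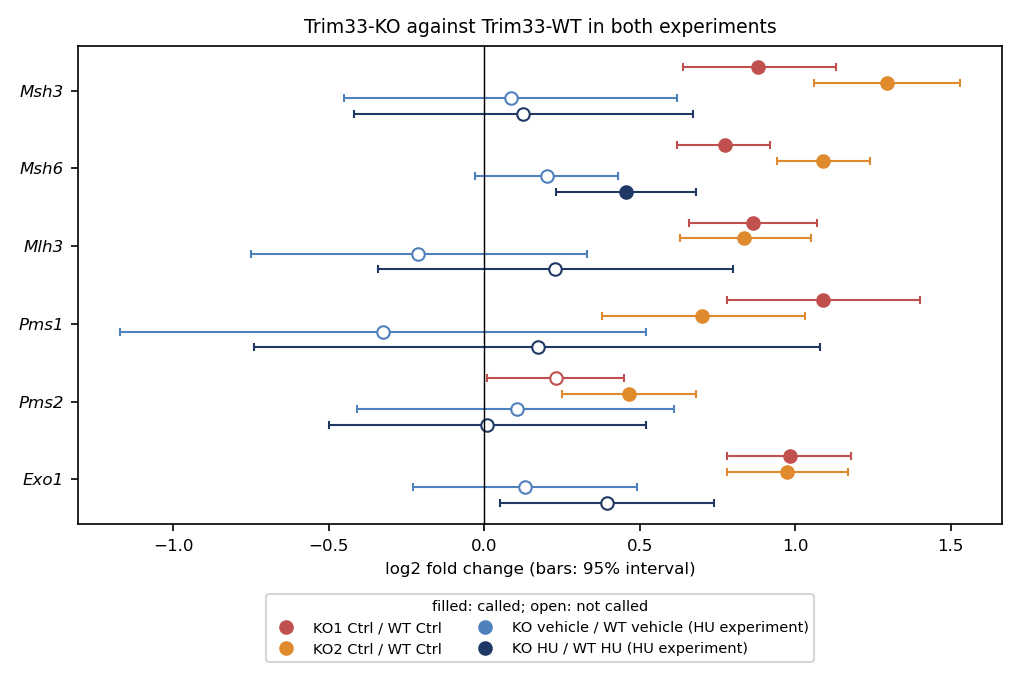
Log2 fold change of KO against WT libraries (horizontal axis) for each mismatch repair enzyme, with the Ctrl vector (threshold 0.01) and, from the HU experiment, with vehicle or HU (threshold 0.05); bars are approximate 95% intervals and filled points were called. With the Ctrl vector 11 of 12 points are filled, and in the HU experiment only Msh6 with HU.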

How the data were processed

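RNA was measured in 20 libraries of 10 groups, and all 6 members were counted in each. Per the labels, libraries were made with a NEBNext Ultra II kit from TRIzol RNA. The paper's methods instead name an RNeasy kit for the RNA and a NEBNext Ultra RNA kit for the libraries. According to the submitters' processing notes, the authors used STAR 2.5.4, mm9 and edgeR 3.26.8; the counting tool is not given in the sources used here. The deposited tables hold counts, whole numbers per gene, that the authors left without a detectable normalization, although the name of 1 table calls them normalized. Of HU counts from 1 to 50, 71.9% are even, against 48.4% of Myc counts; whether both mates of a pair were counted is not given in the sources used here. The authors' own comparison columns (log2 fold change, average log2 CPM, F score, p-value and adjusted p-value) were deposited too and were not used.

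Counts were analysed with edgeR 4.0.16 (R 4.3.3): filterByExpr, which removed 0 genes, TMM factors, all libraries of an experiment in 1 fit with 1 coefficient per group, and two-sided quasi-likelihood tests with Benjamini-Hochberg adjustment over all genes. The threshold was 0.01 for the Myc experiment but 0.05 for HU. SE is the absolute log2FC divided by the square root of F. With 2 libraries against 2, the smallest two-sided exact permutation p is 0.333, so the tests rest on the spread pooled over genes and groups. The 15 comparisons were rerun with DESeq2 1.42.0, other scaling, filters and thresholds, fewer groups in the fit, halved HU counts (divided by 2) and each library left out. On simulated data for KO1 Ctrl against WT Ctrl, with 200 of 13107 genes changed 2-fold, 170 were recovered with 3 false calls, and for WT HU against WT vehicle 138 of 200 among 11210 genes, with 4 false calls. The simulated counts were drawn with the dispersions fitted to these data. Fewer genes were changed than were called in the real comparisons, so these figures do not give the error rate there. Named genes are the members, Trim33, the leading called genes of each list and the 3 closest genes by pattern. Myc, Afp and the single keratin and fibroblast marker genes were added after their values were seen. One further gene of the naming rule is not reported here. The members and lists were chosen with earlier results of these data known. Intervals cover the spread between libraries only.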

Additional observations from a re-analysis of the deposited data

Results flagged for a closer look

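For 8 results, the direct test found that an effect or a level differed between groups. The Myc effect is that of the vector label, and Myc RNA itself was not called as higher in the libraries labelled WT Myc. The Myc effect was smaller in KO1 than in WT for Msh6 (-0.47 on the log2 scale, edgeR adjusted p = 0.00081), Pms1 (-1.38, adjusted p = 1.57e-05) and Exo1 (-1.13, adjusted p = 2.15e-06). It was smaller in KO2 than in WT for Msh3 (-0.87, adjusted p = 0.000232), Msh6 (-0.89, adjusted p = 1.99e-06) and Exo1 (-0.60, adjusted p = 0.00103). These differences rest on the KO1 Myc and KO2 Myc labels. With the Ctrl libraries of the other KO line as the baseline, the Msh3 call was lost (-0.461, edgeR adjusted p = 0.0259). Pms1 was then called in KO2 (-0.829, edgeR adjusted p = 0.00187), and the other calls held. With the Ctrl vector, KO2 exceeded KO1 in Msh3 (0.41, edgeR adjusted p = 0.00558) and Msh6 (0.32, adjusted p = 0.00207). Both calls were lost when certain single libraries were left out, as given above. Trim33 RNA was also higher in KO2 Ctrl (201 to 207 CPM) than in KO1 Ctrl (123 to 130). With a single line per KO name, line and Trim33 loss cannot be told apart. Groups of 2 libraries are too small to look for single outlying libraries.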

How the results depend on the processing

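With DESeq2, library totals, upper-quartile factors, no filter, a minimum of 5 CPM in every library, the other threshold, halved HU counts and a replicate block, the number of members called stayed within 1.5 times that reported in all 15 comparisons. With only the compared groups in the fit, 1 member in place of 3 was called between KO2 Myc and WT Myc. With the Ctrl libraries of the other KO line as the baseline, an alternative added after seeing the data, 1 member in place of 2 was called for KO1 Myc and 2 in place of 4 for KO2 Myc. The log2FC then turned to -0.212 in Msh6 for KO1 Myc, and to 0.043 in Msh3 and 0.000534 in Msh6 for KO2 Myc. The cause was not tested.

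Leaving out each library in turn, the members called numbered 5 to 5 in KO1 Ctrl and 5 to 6 in KO2 Ctrl against WT Ctrl, 0 to 1 between KO2 Ctrl and KO1 Ctrl, 3 to 5 for Myc in WT, 1 to 2 in KO1 and 2 to 2 in KO2, 2 to 3 and 1 to 4 in KO1 Myc and KO2 Myc against WT Myc, 3 to 3 and 3 to 4 for the differences of the Myc effect, and 0 to 1 between KO HU and WT HU. The other 4 comparisons of the HU experiment stayed at 0. A fit that leaves a group with 1 library assumes that this library varies like the other groups.

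Other values that changed sign were not called. For KO2 Ctrl against KO1 Ctrl, Exo1 was 0.000374 with DESeq2, 0.0201 with library totals, 0.00499 with the Ctrl vector libraries alone and 0.00117 with only these groups, and Mlh3 was 0.000349 with library totals. Mlh3 was -0.0118 with DESeq2 for WT Myc against WT Ctrl and -0.049 with library totals for the difference of the Myc effect between KO2 and WT. Pms2 was -0.038 with library totals and -0.0205 with upper-quartile factors for KO HU against WT HU. The values below are log2FC with each library left out. For KO2 Ctrl against KO1 Ctrl the ranges were Mlh3 -0.0898 to 0.0365 and Exo1 -0.0457 to 0.0272. For WT Myc against WT Ctrl the range was Mlh3 -0.107 to 0.0962. For KO2 Myc against KO2 Ctrl the range was Mlh3 -0.00449 to 0.0993. For the difference of the Myc effect between KO1 and WT the ranges were Msh3 -0.231 to 0.0429, Mlh3 -0.192 to 0.0106 and Pms2 -0.153 to 0.0935. For the difference of the Myc effect between KO2 and WT the range was Mlh3 -0.0498 to 0.153. For WT HU against WT vehicle the ranges were Pms2 -0.296 to 0.18 and Exo1 -0.064 to 0.121. For KO HU against KO vehicle the ranges were Msh3 -0.621 to 0.199 and Pms2 -0.421 to 0.181. For KO vehicle against WT vehicle the ranges were Msh3 -0.37 to 0.45, Mlh3 -0.426 to 0.00292, Pms1 -0.82 to 0.368 and Pms2 -0.219 to 0.382. For KO HU against WT HU the ranges were Pms1 -0.252 to 0.811 and Pms2 -0.212 to 0.263. For the difference of the HU effect between KO and WT the ranges were Msh3 -0.318 to 0.503, Pms1 -0.187 to 1.14 and Pms2 -0.365 to 0.236.

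Replicate numbers showed no strong shared shift: the correlation between groups of the difference of replicate 1 from replicate 2 was -0.148 to 0.192 over 15 pairs of groups in the Myc experiment and -0.0136 to 0.051 over 6 in the HU experiment. A weak correlation does not show that the replicates were unpaired. With a replicate block, 5 and 6 members were called in KO1 Ctrl and KO2 Ctrl, 5 for Myc in WT and 1 in KO HU against WT HU, and no call of a member changed. In the HU experiment Pms1 had counts of 14 to 46, and the common biological coefficient of variation was 0.102, against 0.0498 in the Myc experiment. How much of the width of its intervals comes from depth was not tested.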
